A study of Pangasianodon hypophthalmus with 14 samples.

Results

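The vertebrate circadian clock was followed through 10 of its genes, among the 21656 genes counted in tra catfish (*Pangasianodon hypophthalmus*). They were chosen by name, with earlier results of these data known. They are the transcriptional activators *clock*, *clockb* (LOC113544362), *npas2* (LOC113531438), *bmal1a* (LOC113546629), *bmal1b* (LOC113536723) and *bmal2* (LOC113534618), the period genes *per3* and *per1b* (LOC113539847), the nuclear receptor gene *nr1d1* and the output factor gene *tef*. RNA-seq was done on whole embryos and larvae at 7 ages, from 2 dpf (days post fertilization) every second day up to 8 dpf and then daily to 11 dpf, with 2 libraries per stage and 14 libraries in all. The methods describe 2 replicates per stage, each a pool of 4 embryos or larvae, so that the spread between fish is not seen. They also say that RNA of both pools entered library construction in equal amounts, and whether it was mixed is not clear, so the 2 libraries of a stage may share RNA. The stages differ in age alone by their labels, and neither a strain nor a genotype is given. Fish were collected at daily intervals, which puts the stages nominally at the same hour. That hour and the light cycle are not given in the sources used here, and the part of time of day in the levels was not tested. RNA came from the whole body, in which fewer cells of a type and less RNA per cell cannot be told apart.

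In the clock of vertebrates, CLOCK or NPAS2 pairs with a BMAL protein and switches on genes that hold E-box sequences. Among those genes are the *per* and *cry* genes, whose proteins return to the nucleus and block the same activators, and *nr1d1* (Rev-erb alpha), whose protein represses *bmal1*. *tef* encodes a PAR bZIP factor that binds D-boxes and carries the rhythm to output genes. In zebrafish, most tissues hold clocks that respond to light directly, and light induces D-box genes such as *per2* and *cry1a*.

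Levels are given as CPM, the counts of a gene scaled to a common library size by TMM. They do not account for gene length. Ratios of counts between genes are given below to compare libraries only, and do not give the relative abundance of the genes. A gene was called between stages where edgeR's quasi-likelihood test gave a p under 0.05 after adjustment over 19310 tested genes and the log2 fold change was beyond 1 in size. All 10 genes passed the filter on low counts, with counts between 7 and 569 in a library. Library totals lay between 4112131 and 11609823 counts, which made 3 counts worth between 0.289 and 0.720 CPM. The libraries of a pair differed most at 4 dpf (chi-square of 29.6 per gene) and 2 dpf (18.7). At 6, 9 and 11 dpf the pairs were close to the noise of read sampling, with 1.13, 1.15 and 1.29. P-values measure the spread between these libraries, which may be technical, wholly so where the libraries of a stage share RNA. Markers of photoreceptors, pineal, neurons, skeletal muscle, erythrocytes and hepatocytes were found at every stage, and no list was at 0. The pineal list was low, with summed levels between 3.41 and 8.85 CPM, and only 1 of its 4 genes passed the filter.

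The 10 genes divided by how far they moved, a division that did not hold by role in the wider list of clock genes given below. The highest stage mean was 1.497 to 2.105 times the lowest for the 6 activators. It was 4.71 times for *per3*, 4.92 times for *per1b*, 5.48 times for *nr1d1* and 4.21 times for *tef*. Over all tested genes above 0 at every stage the median was 2.14, with quartiles of 1.70 and 3.05. The 4 wide-ranging genes were also those called between at least 1 pair of adjacent stages, beside 29.2% of all tested genes. In the test of any difference among the 7 stages all 10 genes passed, but so did 75.3% of all genes. By the F statistic of that test, *per3* ranked 335, *per1b* 544, *tef* 951 and *nr1d1* 5638 of 19310, and the activators between 10191 and 13103. When the pairs at 6, 9 and 11 dpf were each summed into 1 library, *per3*, *per1b*, *nr1d1* and *tef* passed and the activators did not. That fit held fewer libraries, and no share of all genes is given for it. The outcome therefore does not set the activators apart from other genes.

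**Figure D1:**
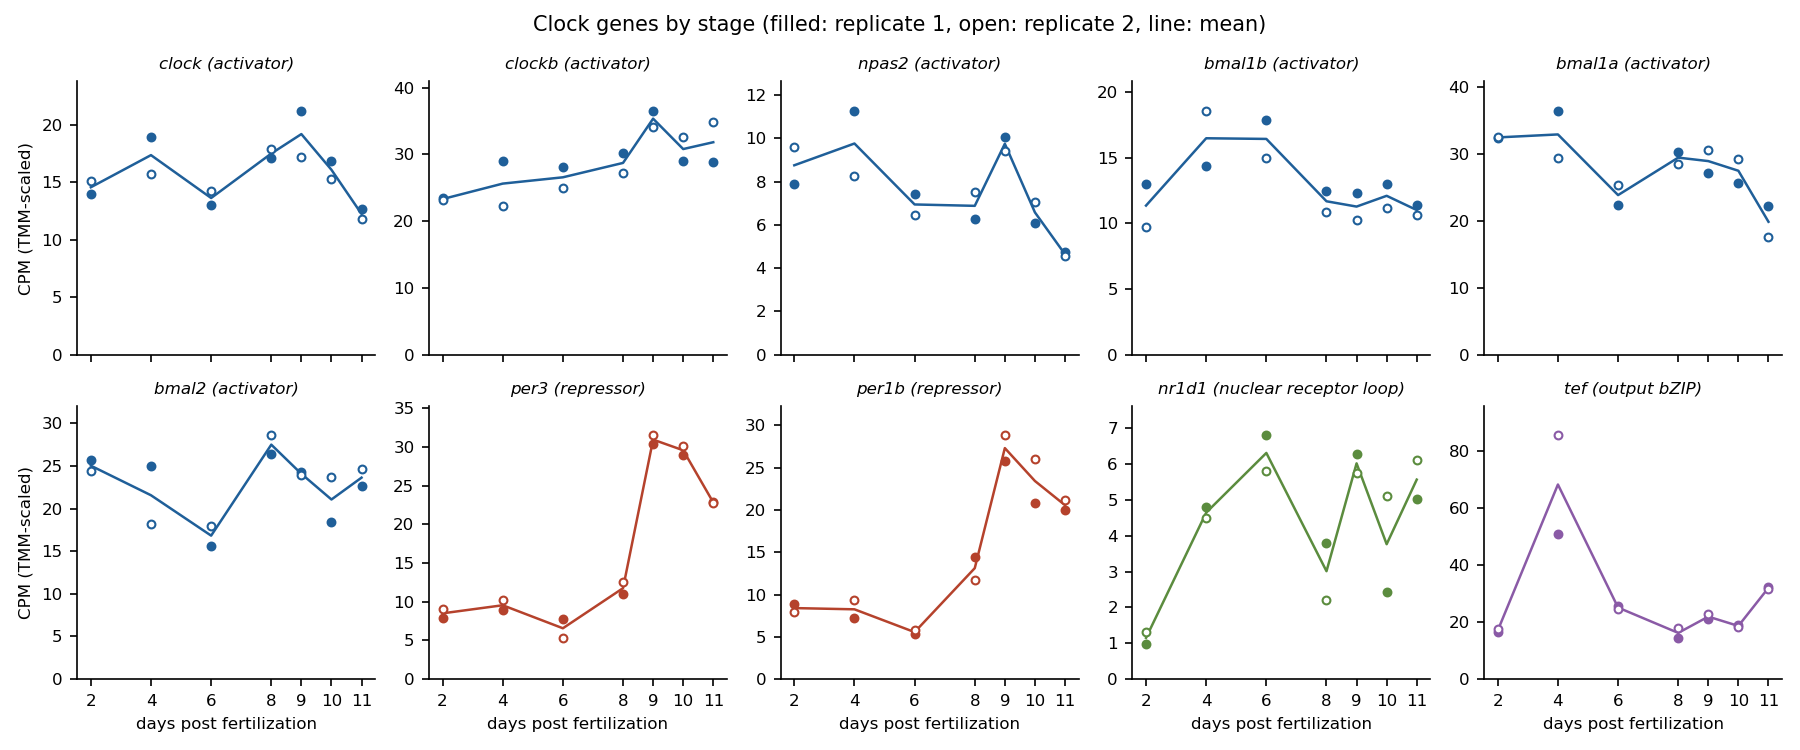
CPM (TMM-scaled) of the 10 clock genes against days post fertilization, with replicate 1 filled, replicate 2 open and the mean of 2 libraries as a line. *per3* and *per1b* stood low up to 6 dpf and highest at 9 dpf, *tef* was highest at 4 dpf, and the 6 activators in blue covered a range of 1.497 to 2.105 times.

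Neither *clock* paralog was called between any of the stages compared. Of all tested genes 29.2% were called between at least 1 pair of adjacent stages. *clock*, the partner of BMAL, was at 13.97 and 15.15 CPM at 2 dpf, 19.0 and 15.7 at 4 dpf, 13.0 and 14.2 at 6 dpf, 17.1 and 17.9 at 8 dpf, 21.2 and 17.2 at 9 dpf, 16.8 and 15.3 at 10 dpf, with 12.7 and 11.8 at 11 dpf. Both libraries of 11 dpf were under every other library. By its means *clock* ran from 9 dpf down through 8, 4, 10, 2 and 6 dpf to 11 dpf, and 4 of the 6 neighbours in that order overlapped. *clockb* ranged from 22.2 CPM in replicate 2 of 4 dpf to 36.5 CPM in replicate 1 of 9 dpf, and every neighbour in its order of stages overlapped. Within a library the counts of *clock* were 0.652 and 0.709 of those of *clockb* at 4 dpf and 0.441 and 0.338 at 11 dpf. Both values of 11 dpf lay below those of all 12 earlier libraries, but the margin was small. The nearest were 0.462 in replicate 1 of 6 dpf and 0.470 in replicate 2 of 10 dpf. From 9 to 11 dpf *clock* had a log2 fold change of -0.65 ± 0.17 (SE, n = 2 against 2, adjusted p = 0.0214), under the fold threshold. Close copies can share reads, and how the counting treated such reads is not given in the sources used here.

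*npas2*, which can replace CLOCK in the pair with BMAL, was the activator with the widest range. It was at 7.90 and 9.61 CPM at 2 dpf, 11.3 and 8.25 at 4 dpf, 7.42 and 6.47 at 6 dpf, 6.25 and 7.51 at 8 dpf, 10.1 and 9.42 at 9 dpf, 6.08 and 7.08 at 10 dpf, with 4.73 and 4.55 at 11 dpf. The libraries of 11 dpf were the lowest and did not overlap with any other stage. From 9 to 11 dpf *npas2* fell by 1.07 ± 0.23 on the log2 scale (adjusted p = 0.00821), and it was the 1 member called in that comparison, in which 2.97% of all tested genes were called. The call was lost without replicate 1 of 9 dpf, when either library of 11 dpf was left out and after summing the pairs of 6, 9 and 11 dpf. The fold change hardly moved: with each library left out in turn it lay between -1.12 and -1.02 on the log2 scale. Of the 6 activators none had a log2 fold change above 0 from 9 to 11 dpf, beside 50.3% of all genes. But 3 of them overlapped between these stages, *bmal2* (-0.03 ± 0.17), *bmal1b* (-0.04 ± 0.20) and *clockb* (-0.15 ± 0.15). Over all tested genes 64.3% did not overlap there.

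The *bmal* genes encode the other partner of the activator complex. *bmal1a* was at 32.5 CPM in both libraries of 2 dpf, at 36.5 and 29.4 at 4 dpf, 22.4 and 25.4 at 6 dpf, 30.4 and 28.6 at 8 dpf, 27.2 and 30.7 at 9 dpf, 25.7 and 29.3 at 10 dpf, with 22.2 and 17.6 at 11 dpf. It was lower at 11 dpf than at 2 dpf (log2 fold change -0.71 ± 0.16, adjusted p = 0.00176), under the fold threshold. The libraries of these stages did not overlap, as was so for 72.5% of all tested genes. *bmal1b* was also highest by its mean at 4 dpf (14.4 and 18.6 CPM), was as high at 6 dpf (17.9 and 15.0 CPM), where *bmal1a* was low, and lay between 9.75 and 13.0 CPM in the 10 libraries of the other stages. Its log2 fold change was 0.56 ± 0.20 from 2 to 4 dpf (adjusted p = 0.0299) and -0.51 ± 0.19 from 6 to 8 dpf (0.059). The counts of *bmal1a* were 1.25 and 1.69 times those of *bmal1b* at 6 dpf, 1.58 to 2.53 times at 4 and 11 dpf, and 1.97 to 3.34 times at the other stages, and the 6 dpf libraries overlapped with those of 4 and 11 dpf. *bmal2* was lowest at 6 dpf (15.65 and 17.99 CPM) and highest at 8 dpf (26.4 and 28.6 CPM). Scaled to library totals, its mean was highest at 2 dpf (29.8 CPM against 24.9 at 8 dpf). From 6 to 8 dpf *bmal2* had a log2 fold change of 0.72 ± 0.16 (adjusted p = 0.00552), again under the fold threshold. Thus no activator was called between adjacent stages, beside 29.2% of all tested genes called between at least 1 such pair.

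**Figure D2:**
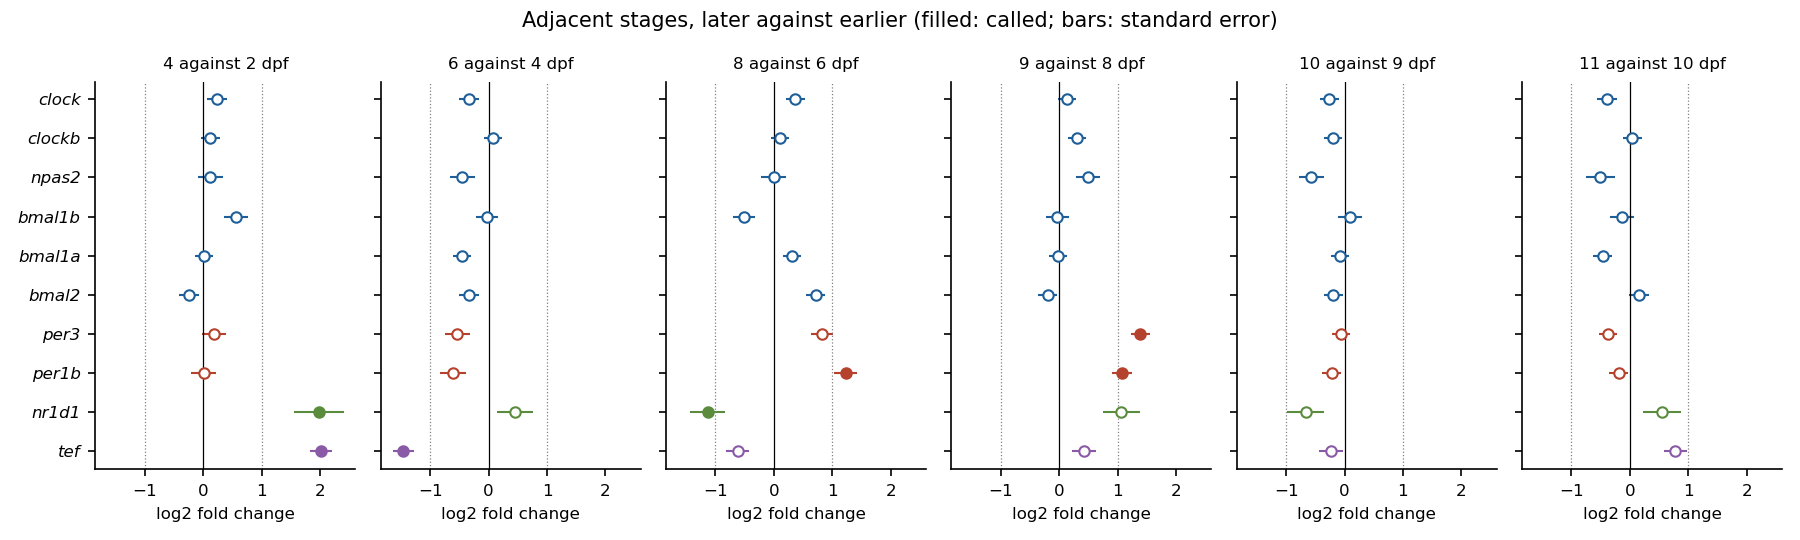
Log2 fold change of each clock gene between adjacent stages, later against earlier, with bars for the standard error, dotted lines at -1 and 1, and filled points for called genes. *nr1d1* and *tef* were called higher from 2 to 4 dpf, *per1b* from 6 to 8 dpf, and *per3* and *per1b* from 8 to 9 dpf. *tef* was called lower from 4 to 6 dpf and *nr1d1* from 6 to 8 dpf.

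The period genes encode the partners of CRY in the arm of the loop that blocks the activators. *per3* was at 7.90 and 9.09 CPM at 2 dpf, 8.88 and 10.2 at 4 dpf, 7.83 and 5.31 at 6 dpf, with 11.0 and 12.5 at 8 dpf. It then stood at 30.4 and 31.5 CPM at 9 dpf, 29.0 and 30.1 at 10 dpf, with 22.9 and 22.7 at 11 dpf. Every library of 9 to 11 dpf was above every library of 2 to 8 dpf. This division was read from the values, and the share of all tested genes that divide so is not given. In the order of stage means, 9, 10, 11, 8, 4, 2 and 6 dpf, only 4 and 2 dpf overlapped as neighbours. *per1b* had the same division, with 8.89 and 7.90 CPM at 2 dpf, 7.20 and 9.30 at 4 dpf, 5.29 and 5.82 at 6 dpf, 14.5 and 11.7 at 8 dpf, 25.8 and 28.8 at 9 dpf, 20.84 and 26.02 at 10 dpf, with 20.0 and 21.2 at 11 dpf. Its libraries at 8 dpf lay above all 6 libraries of 2 to 6 dpf and below all 6 of 9 to 11 dpf.

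From 8 to 9 dpf both period genes rose, and they were the 2 members called, beside 1.28% of all tested genes called in either direction and 0.461% called higher. *per3* rose by 1.39 ± 0.16 on the log2 scale, or 2.61-fold (adjusted p = 0.000269), and *per1b* rose by 1.07 ± 0.17, or 2.10-fold (0.00208). After summing the pairs of 6, 9 and 11 dpf, *per3* was still called, among 11 genes in all, while *per1b* was not (adjusted p = 0.218). The call of *per1b* also depended on replicate 2 of 8 dpf and on replicate 2 of 9 dpf. With each library left out in turn its log2 fold change lay between 0.91 and 1.21, lowest without replicate 2 of 8 dpf. From 6 to 8 dpf *per1b* rose by 1.23 ± 0.20 (adjusted p = 0.000511), and was 1 of 2 members called, beside 5.74% of all genes. *per3* had a log2 fold change of 0.83 ± 0.19 there (0.00533), under the fold threshold. From 8 to 10 dpf, a comparison that shares the 8 dpf libraries, *per3* was the 1 member called (log2 fold change 1.32 ± 0.16, adjusted p = 0.000301) beside 0.414% of all genes, and *per1b* had 0.85 ± 0.17 (0.0223).

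Markers of neurons lay higher at 9 dpf than at 8 dpf too. Of 9 tested neuron markers 8 had a log2 fold change above 0, beside 44.6% of all genes, with a median of 0.43. Among them 1 was called higher, beside 0.461% of all genes. The summed level of the 10 neuron markers was 250.3 and 217.7 CPM at 8 dpf and 315.2 and 305.3 CPM at 9 dpf. It was 274.5 and 285.0 CPM at 6 dpf, where the period genes were lowest, 270.2 and 283.2 at 10 dpf, and between 279.9 and 282.4 at 11 dpf. The libraries at 2 and 4 dpf lay between 235.9 and 394.7 CPM. No neuron marker was at 0 in both libraries of a stage. Their part in the levels of the period genes was not tested.

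While both period genes rose, their balance to each other varied between libraries without a division at 9 dpf. The libraries from 9 dpf on, at 1.07 to 1.39 counts of *per3* for each of *per1b*, lay within the range of those up to 8 dpf. The counts of *per3* were 0.758 to 1.48 times those of *per1b* over the 14 libraries, with the lowest value in replicate 1 of 8 dpf and the highest in replicate 1 of 6 dpf. Against the activators the balance shifted. The summed counts of *per3* and *per1b* were 0.144 and 0.148 of those of the 6 activators at 2 dpf, 0.119 and 0.174 at 4 dpf, 0.125 and 0.107 at 6 dpf, with 0.207 and 0.201 at 8 dpf. They were 0.427 and 0.480 at 9 dpf, 0.457 and 0.471 at 10 dpf, with 0.418 and 0.422 at 11 dpf. This ratio is taken within a library and does not depend on scaling, and the libraries up to 8 dpf and those from 9 dpf on did not overlap. That division too was read from the values, and no such ratio is given for other genes.

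**Figure D3:**
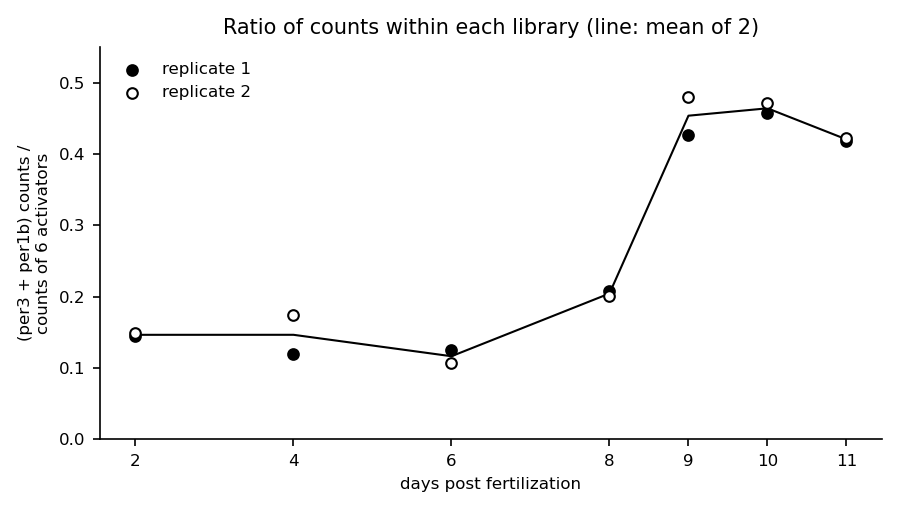
Summed counts of *per3* and *per1b* divided by the summed counts of the 6 activators in each library, against days post fertilization, with the mean of 2 libraries as a line. The ratio lay between 0.107 and 0.207 up to 8 dpf and between 0.418 and 0.480 from 9 dpf on.

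*nr1d1* was scarce at 2 dpf and several-fold higher afterwards, without a steady level. It was at 0.988 and 1.32 CPM at 2 dpf, from 7 and 10 counts, and at 4.80 and 4.50 CPM at 4 dpf. It reached 6.81 and 5.82 CPM at 6 dpf, was at 3.81 and 2.21 at 8 dpf, at 6.29 and 5.77 at 9 dpf, at 2.43 and 5.10 at 10 dpf, and at 5.02 and 6.12 at 11 dpf. The libraries of 2 dpf were below all others, and those of 8 dpf and replicate 1 of 10 dpf were the next lowest. From 2 to 4 dpf *nr1d1* rose by 1.98 ± 0.42 on the log2 scale (3.95-fold, adjusted p = 0.00119). It was 1 of 2 members called, beside 19.8% of all genes called in either direction and 13.8% called higher. From 6 to 8 dpf it fell by 1.14 ± 0.30 (adjusted p = 0.014). That call was lost without replicate 2 of 8 dpf (log2 fold change -0.73, adjusted p = 0.223), when replicate 1 of 6 dpf was left out (0.122) and after summing the pairs (0.133). From 8 to 9 dpf its log2 fold change was 1.06 ± 0.31, which did not pass (adjusted p = 0.0623). The counts were low throughout: the 95% Poisson interval of replicate 1 of 10 dpf, 1.33 to 4.08 CPM, overlapped with that of replicate 2, 3.47 to 7.25 CPM, and covers counting error only.

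*tef* was highest at 4 dpf. It was at 16.7 and 17.4 CPM at 2 dpf, 50.9 and 85.3 at 4 dpf, 25.6 and 24.5 at 6 dpf, 14.34 and 17.999 at 8 dpf, 20.96 and 22.78 at 9 dpf, 18.9 and 18.3 at 10 dpf, with 32.2 and 31.7 at 11 dpf. The 4 dpf libraries were above all others although they differed from each other, and the 11 dpf libraries came next. From 2 to 4 dpf *tef* rose by 2.02 ± 0.19 on the log2 scale (4.05-fold, adjusted p = 5.03e-07), and without replicate 2 of 4 dpf by 1.59. From 4 to 6 dpf it fell by 1.46 ± 0.19 (adjusted p = 2.45e-05), the 1 member called beside 11.3% of all genes, and without replicate 2 of 4 dpf it fell by 1.005. From 10 to 11 dpf it had a log2 fold change of 0.78 ± 0.20 (adjusted p = 0.0433), under the fold threshold.

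Markers of photoreceptors were high in the same libraries. The summed level of 10 photoreceptor markers was 28.4 and 26.9 CPM at 2 dpf, 58.1 and 92.7 at 4 dpf, with 35.7 and 38.2 at 6 dpf. It was between 29.3 and 48.1 CPM from 8 to 10 dpf, with 56.0 and 64.6 at 11 dpf. From 2 to 4 dpf 7 of 8 tested markers had a log2 fold change above 0, beside 50.2% of all genes. In that step 5 were called higher, beside 13.8%. From 4 to 6 dpf 5 were called lower, beside 6.48% of all genes. No photoreceptor marker was at 0 in both libraries of a stage. At 4 dpf replicate 2 was the higher library for both these markers and *tef*. It was also the higher library for the summed markers of hepatocytes, neurons, pineal and skeletal muscle, and the lower for those of erythrocytes. The part of the eye in the level of *tef* was not tested.

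In the last steps no member was called. From 9 to 10 dpf there were 0 calls by edgeR, beside 1.01% of all genes, and 0 by DESeq2, beside 0.647%. At an unadjusted p under 0.05 with the fold threshold there were also 0, beside 2.52%. From 10 to 11 dpf the same 3 counts were 0, beside 1.14% of all genes by edgeR, 0.754% by DESeq2 and 2.74% at the unadjusted p. Over the whole span, from 2 to 11 dpf, 3 of 10 members were called, all higher, beside 20.8% of all genes in either direction and 12.6% called higher. *per3* rose by 1.42 ± 0.18 (adjusted p = 6.91e-06), *per1b* by 1.29 ± 0.18 (2.94e-05) and *nr1d1* by 2.25 ± 0.39 (0.000215). *tef* had 0.91 ± 0.20 (0.00154) and *npas2* -0.92 ± 0.23 (0.00436), both under the fold threshold. *clockb* had 0.45 ± 0.16 (0.0286).

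A wider list of clock genes was drawn up by name, also with earlier results known. It held 36 genes beside the 10 members, of which 33 were tested. *rorc*, *aanat2* and *asmt* had too few counts. From 2 to 4 dpf 3 of the 33 (all higher) were called, beside 19.8% of all genes in either direction and 13.8% higher. From 4 to 6 dpf 2 were called higher and 4 lower, beside 11.3% of all genes. From 8 to 9 dpf 2 were called, both higher, beside 1.28% of all genes, and in the other adjacent comparisons 0 were called. Between some adjacent pair of stages 9 of the 33 were called, beside 29.2% of all tested genes. Of these 9 genes 3 belong to the *per*, *cry*, *ciart* and *bhlhe40/41* group, of which 8 were tested, and 6 to the 8 tested genes of bZIP factors of the D-box. Among 7 genes of the nuclear receptor loop and 6 of kinases and ubiquitin ligases 0 were called.

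**Figure D4:**
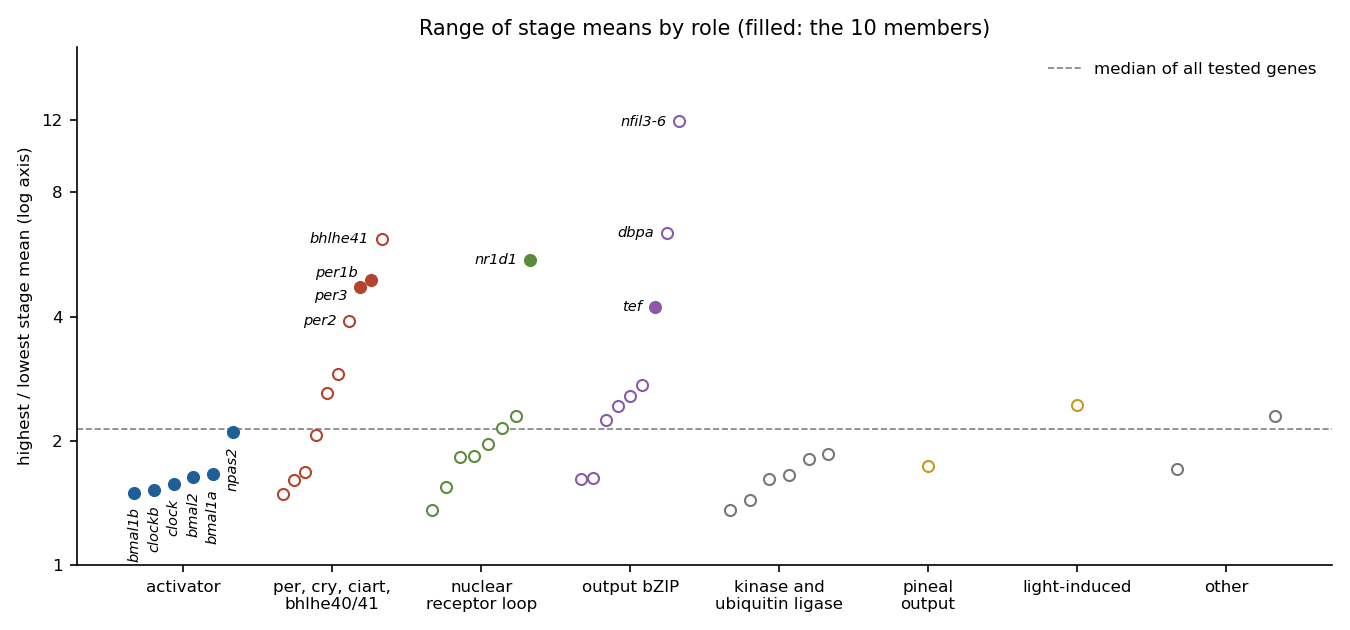
Highest divided by lowest stage mean (log axis) for the 10 members (filled) and the 33 other tested clock genes (open) by role, with the median of all tested genes, 2.14, as a dashed line. The 6 activators lay below that line, while *per3*, *per1b*, *nr1d1* and *tef* lay at 4.21 to 5.48. The open genes in the group of *per3* and *per1b* lay on both sides of it, from *cry2* at 1.49 to *bhlhe41* at 6.16. So did those of the nuclear receptor loop, from *rorb* at 1.36 to *rora* at 2.29. Those of the bZIP factors ran from *nfil3-5* at 1.62 to *nfil3-6* at 11.9.

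*per2* (LOC113533218), a period gene that light induces in zebrafish, was called higher from 2 to 4 dpf and lower from 4 to 6 dpf, as *tef* was. It was at 13.0 and 15.0 CPM at 2 dpf, 47.8 and 61.3 at 4 dpf, 23.9 and 20.6 at 6 dpf, 25.6 and 29.5 at 8 dpf, 41.3 and 44.3 at 9 dpf, 37.9 and 38.7 at 10 dpf, with 51.1 and 54.6 at 11 dpf. The libraries of 4 and 11 dpf were the highest and overlapped. *per2* rose by 1.97 ± 0.16 from 2 to 4 dpf (adjusted p = 7.62e-08) and fell by 1.30 ± 0.15 from 4 to 6 dpf (1.10e-05). From 8 to 9 dpf it had a log2 fold change of 0.63 ± 0.15 (0.0249), under the fold threshold.

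The *nfil3* genes encode bZIP repressors of the D-box, and 3 of them were called in the early stages. *nfil3-6* (LOC113528502) was at 0.423 and 0.922 CPM at 2 dpf, from 3 and 7 counts, and at 5.04 and 10.9 CPM at 4 dpf. It rose by 3.59 ± 0.47 (adjusted p = 1.35e-05) and then fell by 1.78 ± 0.36 to 2.64 and 2.20 CPM at 6 dpf (0.00129). At 10 dpf it was at 5.73 and 6.75 CPM, which overlapped with 4 dpf, and at 11 dpf at 7.68 and 4.39 CPM. From 2 to 11 dpf *nfil3-6* was called higher (log2 fold change 3.12 ± 0.49, adjusted p = 7.25e-05), beside 12.6% of all genes. *nfil3* fell by 1.04 ± 0.20 from 4 to 6 dpf, from 25.4 and 37.8 CPM to 17.0 and 14.2 CPM (0.000975). *nfil3-2* (LOC113528395) fell by 1.14 ± 0.20 in that step, from 31.9 and 19.5 CPM to 11.0 and 11.9 CPM (0.000517).

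Of the other PAR bZIP genes, whose products activate through the D-box, 3 were called, from 4 to 6 dpf or from 8 to 9 dpf. *dbpa* (LOC113535147) rose by 1.65 ± 0.57 from 4 to 6 dpf (adjusted p = 0.0381), from 1 and 10 counts to 19 and 36 counts. *dbpb* (LOC113542640) rose by 1.15 ± 0.32 (0.012), from 1.68 and 3.45 CPM to 5.29 and 6.99 CPM. *hlf* rose by 1.36 ± 0.27 from 8 to 9 dpf (0.00992), from 2.44 and 2.31 CPM to 6.16 and 6.05 CPM, and its libraries at 9 dpf were its highest of all 14. *tefb* (LOC113534680), a paralog of *tef* named here after its values were seen, was not called. Its mean was highest at 4 dpf, at 5.52 and 6.75 CPM, but the 11 dpf libraries overlapped with these, at 4.43 and 5.96 CPM. It was at 5.503 and 5.005 CPM at 2 dpf and 4.78 and 2.85 at 6 dpf. Its log2 fold changes were 0.25 ± 0.27 from 2 to 4 dpf (adjusted p = 0.483) and -0.68 ± 0.27 from 4 to 6 dpf (0.0707). Scaled to library totals, its mean was highest at 2 dpf (6.26 CPM against 6.10 at 4 dpf). In the test of any difference among the 7 stages it did not pass (adjusted p = 0.193).

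Of the remaining repressors, *ciarta* (LOC113547090), an inhibitor of CLOCK and BMAL, rose with the period genes from 8 to 9 dpf, by 1.04 ± 0.25 (adjusted p = 0.0281), from 4.42 and 5.29 CPM to 9.82 and 10.5 CPM. *bhlhe41*, whose product competes for the E-box, was at 1.83 and 2.77 CPM at 2 dpf, 4.08 and 5.10 at 4 dpf, 6.30 and 5.95 at 6 dpf, 7.93 and 9.43 at 8 dpf, 10.1 and 11.5 at 9 dpf, 13.7 and 10.9 at 10 dpf, with 14.04 and 14.28 at 11 dpf. Each stage mean was above the one before, and only the neighbours 9 and 10 dpf overlapped. It was called higher from 2 to 4 dpf (log2 fold change 1.01 ± 0.30, adjusted p = 0.0124), and from 2 to 11 dpf it rose by 2.60 ± 0.25 (2.86e-07).

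**Figure D5:**
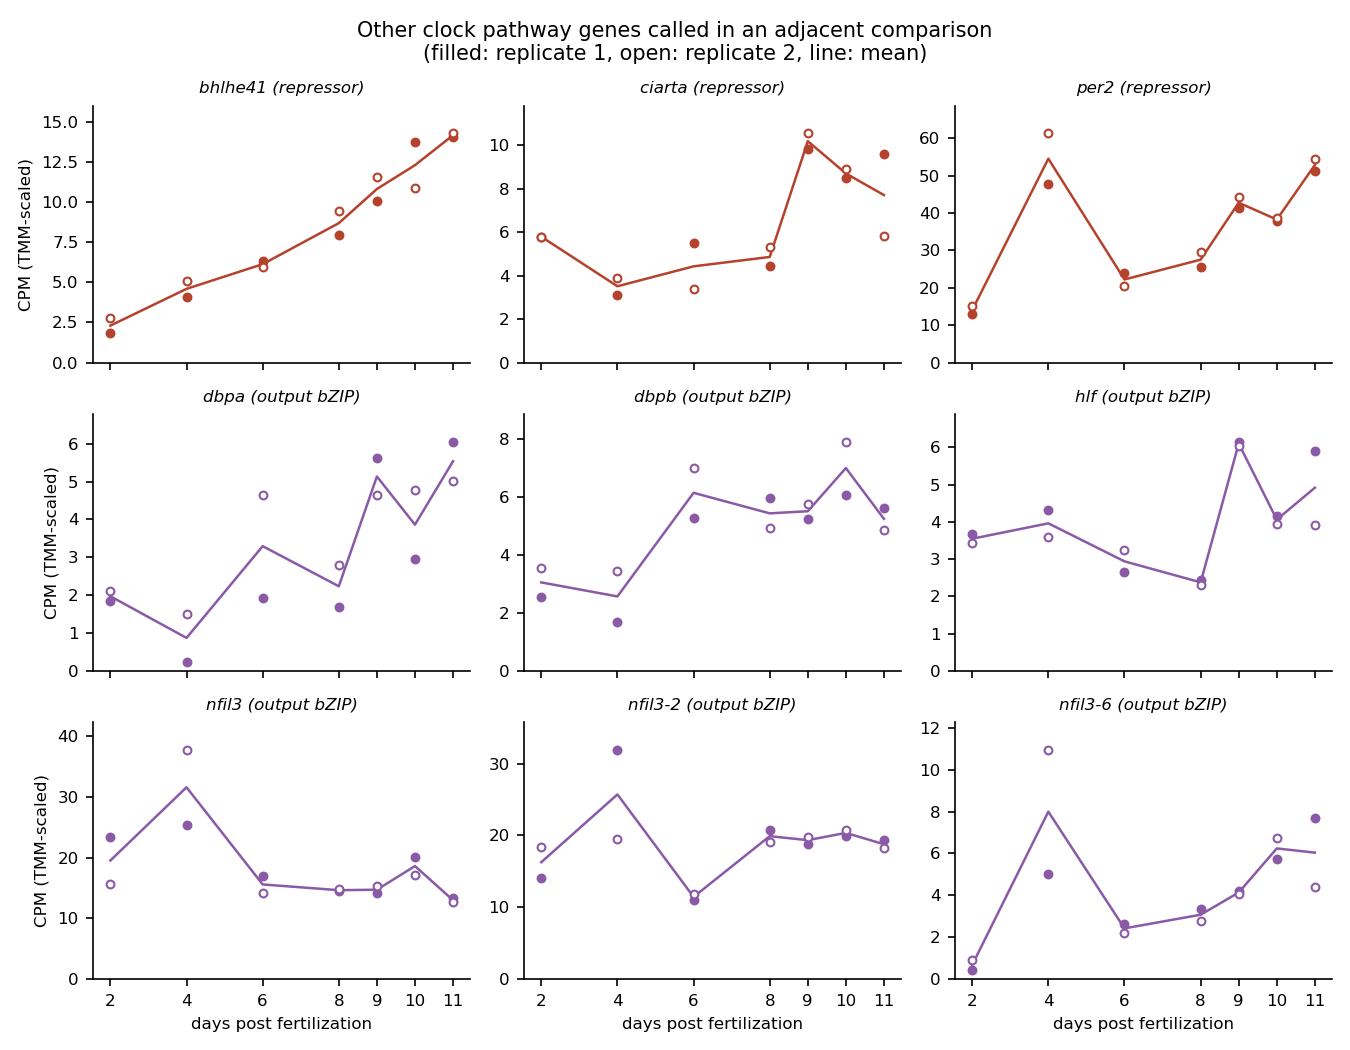
CPM (TMM-scaled) of the 9 other clock genes called between adjacent stages, against days post fertilization, with replicate 1 filled, replicate 2 open and the mean of 2 libraries as a line. *per2*, *nfil3* and *nfil3-6* were highest by their means at 4 dpf and fell to 6 dpf. The 4 dpf libraries overlapped with those of 11 dpf for *per2* and with those of 10 and 11 dpf for *nfil3-6*. *ciarta* and *hlf* stood highest at 9 dpf, and the means of *bhlhe41* rose from 2.30 to 14.2 CPM.

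The search for like profiles left out the members and the wider clock list. Another clock gene, such as *per3* for *per1b*, may therefore lie closer than the genes named. Of the other genes, those with the profile most like that of a member were named. Likeness was taken as the smallest root mean square difference in centred log2 CPM over the 14 libraries. For *per1b* these were *shank1* (0.30), LOC113533649 (0.30), LOC113523791 (0.35), *sdk2a* (0.35) and *apbb2b* (0.35). For *nr1d1* they were *gabrb2* (0.32), *gc2* (0.33), *htr4* (0.34), *zgc:175280* (0.34) and *plb1* (0.35). For *clock* they were *msh3* (0.12), *aatf* (0.13), *porb* (0.14), *pkn3* (0.15) and *clk4b* (0.15). The profiles themselves had standard deviations of 0.83 for *per1b*, 0.79 for *nr1d1* and 0.23 for *clock*, so that the small differences of *clock* go with its narrow range.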

How the data were processed

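RNA was extracted from whole embryos and larvae, depleted of ribosomal RNA and sequenced on an Illumina platform. The authors trimmed reads (Trimmomatic 0.36), mapped them by STAR 2.7.0 and obtained counts per gene from HTSeq. The deposited values are raw counts for 21656 genes in 14 libraries, and 0 columns belonged to no sample. Strand setting and the treatment of reads shared by paralogs are not given in the sources used here.

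The software was R 4.3.3 with edgeR 4.0.16. The filter filterByExpr left 19310 of 21656 genes. TMM factors scaled the libraries, and all comparisons came from a single quasi-likelihood fit with stage as its factor. P-values were adjusted by Benjamini-Hochberg over all tested genes. The standard error was taken as the size of the log2 fold change over the root of its F statistic. The common dispersion was 0.01409. Log2 CPM for likeness used a prior count of 2. The fit was tested on simulated data. Alternatives were DESeq2 1.42.0, unadjusted p, fits of 2 stages, RLE scaling, library totals, no filter, no fold threshold, the replicate number as a block, each library left out, and the pairs of 6, 9 and 11 dpf summed.

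Of 11307 genes listed by LOC identifier, 10538 were found in the RefSeq gene table of assembly fPanHyp1.pri and 6917 have a symbol there. The 6 members with such identifiers all matched. That table was used for names only. Promoter motifs and sequences were not analysed here. The members and the lists were chosen with earlier results of these data known. All members were named, with the other clock genes called between adjacent stages. So were the 5 genes outside the clock lists most like *nr1d1*, *per1b* and *clock*.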

Additional observations from a re-analysis of the deposited data

How the results depend on the processing

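Of the 12 calls of members, 9 were kept in every other setting tried. The exceptions were *nr1d1* from 6 to 8 dpf, *per1b* from 8 to 9 dpf and *npas2* from 9 to 11 dpf, and no fold change of a called member changed direction. With no fold threshold the members called were 3 from 4 to 6 dpf (beside 30.4% of all genes), 5 from 6 to 8 dpf (21.7%), 1 from 10 to 11 dpf (3.604%), 2 from 8 to 10 dpf (0.839%), 3 from 9 to 11 dpf (8.76%) and 7 from 2 to 11 dpf (42.9%). After summing the libraries of 6, 9 and 11 dpf within each stage they were 1 from 6 to 8 dpf, 1 from 8 to 9 dpf and 0 from 9 to 11 dpf, and 4 genes differed among the 7 stages. Over all genes that setting called 377 in place of 1108 from 6 to 8 dpf, 11 in place of 247 from 8 to 9 dpf, 37 in place of 195 from 9 to 10 dpf, 1 in place of 221 from 10 to 11 dpf, 37 in place of 80 from 8 to 10 dpf and 84 in place of 573 from 9 to 11 dpf, with fewer libraries in the fit. Fits of the 2 stages alone called 403, 300, 369 and 157 genes from 8 to 9, 9 to 10, 10 to 11 and 8 to 10 dpf, and an unadjusted p 527, 486, 529 and 343. When each library was left out in turn, the calls lost were *nr1d1* from 6 to 8 dpf, *per1b* from 8 to 9 dpf and *npas2* from 9 to 11 dpf. Their log2 fold changes ranged from -1.51 to -0.73 for *nr1d1*, 0.91 to 1.21 for *per1b* and -1.12 to -1.02 for *npas2*. Some of these fits also gained calls of members, from 6 to 8, 8 to 9 and 2 to 11 dpf. The number of calls over all genes moved in these fits too. A stage left with 1 library was assumed to vary like the others. DESeq2 found 7 members that differed among stages, without *clock*, *bmal1b* and *bmal2*. The share of all genes that differed among stages is given here for the main fit alone (75.3%). Same-numbered libraries showed no shared deviation: 0 of 21 correlations between stages were over 0.1, from -0.16 to 0.06. At 6, 9 and 11 dpf the pairs differed little beyond read sampling (chi-square of 1.13, 1.15 and 1.29 per gene). Correlations with these stages lie near 0 whether or not the numbers pair the libraries, so pairing is not excluded. The replicate block changed no count of members called (2 from 2 to 4 dpf and 2 from 8 to 9 dpf). Scaling to library totals moved the median log2 fold change of all genes by -0.25 from 2 to 4 dpf, -0.21 from 6 to 8 dpf, 0.13 from 8 to 9 dpf and -0.28 from 2 to 11 dpf. Under it the range of *clockb* was 1.36 in place of 1.52. The ranges of the other activators widened, to 2.29 from 2.10 for *npas2* and to 1.99 from 1.66 for *bmal1a*. No median range of all genes is given for that scaling. The highest stage mean moved from 4 to 2 dpf for *npas2* and *bmal1a*. It moved from 4 to 6 dpf for *bmal1b* and from 8 to 2 dpf for *bmal2*. With library totals *nr1d1* was also called from 8 to 9 dpf.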

Other observations

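Other genes of the wider list, chosen after their values were seen, bear on the same stages. *cry1a* (LOC113532029), which light induces in zebrafish, was at 39.8 CPM in replicate 1 of 4 dpf and 78.4 CPM in replicate 2, and *cpdp* (LOC113539829), a photolyase gene, at 29.5 and 41.5 CPM. At 2 dpf *cry1a* was at 38.7 and 37.0 CPM. From 8 to 9 dpf *cry1a* had a log2 fold change of 0.93 ± 0.21 (edgeR adjusted p = 0.0182), under the fold threshold of 1. It went from 29.6 and 34.5 CPM to 62.6 and 59.9 CPM. The other *cry* genes overlapped between these stages, with -0.003 ± 0.22 for *cry1*, -0.08 ± 0.13 for *cry3a* and 0.26 ± 0.22 for *cry2*. *bhlhe40*, a paralog of *bhlhe41*, had 0.88 ± 0.18 in that step (0.0124). From 8 to 10 dpf *bhlhe40* was called higher at 1.07 ± 0.18 (0.00679), beside 0.280% of all genes. *nr1d2b* (LOC113543761), the related Rev-erb beta gene, had 0.63 ± 0.17 from 8 to 9 dpf (0.0411). It was at 10.9 and 10.5 CPM at 2 dpf against 19.2 and 21.1 CPM at 4 dpf. From 8 to 9 dpf 6 of the 33 other clock genes had an adjusted p under 0.05 at any fold, beside 4.42% of all genes. *timeless* and *tipin*, whose products act at replication forks, were lower at 11 than at 2 dpf. Their log2 fold changes were -0.77 ± 0.15 (0.000404) and -1.12 ± 0.24 (0.00134). Of the 2 only *tipin* passed the fold threshold, beside 8.22% of all genes called lower.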
